A study of Mus musculus with 16 samples.

Results

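The PEA3 family of ETS transcription factors has 3 members in the mouse, Etv1, Etv4 and Etv5, and their RNA was followed here across 4 culture states of pluripotent stem cells. All 3 were found by the RefSeq accession of their probes, which gave 5 of the 55681 probes of the array: 1 for Etv5, 2 for Etv4 and 2 for Etv1. All 3 passed the filter on dim probes and are among the 15517 genes tested. The factors were chosen by their measured levels over the 4 culture groups, so their differences between culture groups are given as a description, with no test.

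RNA from 16 stem cell lines of strain 129/Ola was hybridised to 16 single-colour arrays, 4 lines in each of 4 groups, with no agent in the labels beyond those of the culture medium. The EpiSC lines, labelled primed, came from the epiblast of embryos at E6.5 and grew in activin A and bFGF. The 2iSB_LIF and 2i_LIF lines, labelled ground state, came from preimplantation embryos and grew in 2i with LIF, with SB431542 added in 2iSB_LIF. The LIF_serum lines, labelled naive, came from preimplantation embryos and grew in LIF and serum, and their labels hold 2 codes, LSFF and LS, that are not explained. EpiSC and the embryonic stem cell groups therefore differ in the stage of origin as well as in medium. Passage numbers were 24 to 28 in EpiSC, 17 to 24 in 2iSB_LIF, 22 to 24 in 2i_LIF and 23 to 26 in LIF_serum. Each array is a different line, so the spread within a group includes that between lines, and 4 arrays a group limit the precision.

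Etv1, Etv4 and Etv5 share an ETS domain, which binds DNA around a GGAA core, and an acidic activation domain. In vertebrate embryos Etv4 and Etv5 are switched on where FGF signals through RAS, RAF, MEK and ERK, together with feedback inhibitors of the same pathway, the Sprouty and Spred proteins and the ERK phosphatases of the Dusp family. The repressor Capicua, which ERK inactivates, holds down PEA3 genes in mammalian cells, and the COP1 ubiquitin ligase degrades the proteins. 2i is the usual name for a MEK inhibitor with a GSK3 inhibitor, and SB431542 blocks activin and TGF-beta type I receptors. Of these medium components, the MEK inhibitor acts on the FGF and ERK pathway directly, as does bFGF, a ligand of it.

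Promoters of Etv5 and Etv1 are shown because these genes differed in EpiSC in opposite directions, so that the sequence around their starts can be compared. RefSeq windows of build GRCm38.p6, from 250 bases before to 50 after an annotated start, were held for 2 of the 3 members, 4 windows in all. Capitals mark matches on either strand to GGAAGT, an ETS core with its flank, and to CCAAT, the box bound by NF-Y, which reads ATTGG on the other strand. The first Etv5 window lies at chr16:22439521-22439820 on the minus strand, the second at chr16:22438319-22438618 on the same strand, and the first Etv1 window at chr12:38779832-38780131 on the plus strand.
Etv5 window 1: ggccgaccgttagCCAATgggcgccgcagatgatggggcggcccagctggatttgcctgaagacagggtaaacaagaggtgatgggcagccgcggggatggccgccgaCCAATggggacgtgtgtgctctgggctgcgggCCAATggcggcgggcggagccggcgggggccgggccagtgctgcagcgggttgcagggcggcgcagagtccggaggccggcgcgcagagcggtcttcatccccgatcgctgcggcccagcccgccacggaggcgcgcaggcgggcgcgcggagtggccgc
Etv5 window 2: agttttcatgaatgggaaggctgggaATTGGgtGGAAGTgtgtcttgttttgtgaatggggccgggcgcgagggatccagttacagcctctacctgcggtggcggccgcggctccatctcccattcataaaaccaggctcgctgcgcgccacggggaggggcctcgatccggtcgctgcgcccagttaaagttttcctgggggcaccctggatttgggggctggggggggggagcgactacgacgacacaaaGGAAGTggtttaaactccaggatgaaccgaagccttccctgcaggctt
Etv1 window 1: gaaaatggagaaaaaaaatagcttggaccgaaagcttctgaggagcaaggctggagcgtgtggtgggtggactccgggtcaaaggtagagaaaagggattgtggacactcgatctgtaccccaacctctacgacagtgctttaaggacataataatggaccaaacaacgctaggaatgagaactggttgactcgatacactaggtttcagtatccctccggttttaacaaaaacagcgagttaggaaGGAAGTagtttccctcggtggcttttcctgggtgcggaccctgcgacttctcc
The first Etv5 window was 74% G and C with 37 CpG, and the second 60% with 19, against 48.7% with 12 in the first Etv1 window and medians of 52.7% and 7 over 32851 promoters. CCAAT was found 3 times in the first Etv5 window, once in the second and in neither Etv1 window, and 37.4% of promoters hold it. GGAAGT was found 2 times in the second Etv5 window and 1 time in the first Etv1 window, and 23.8% of promoters hold it. No match of one motif overlapped one of the other. No Capicua octamer (TGAATGAA, TGAATGGA, TCAATGAA or TCAATGGA, both strands) was found in the 4 windows, and 3.84% of promoters hold one. A match describes these letters and shows no binding, and the absence of one covers only these windows.

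Levels below are log2 of the processed signal over the 75th percentile of the same array, so 0 is that percentile and 1 unit is a 2-fold step, and no probe's level is set against another's. On all arrays 51.5 to 63.8% of probes were well above background, and none was saturated. The arrays lay on 2 slides. Slide 2 held every EpiSC array, 2iSB_LIF array 3, 2i_LIF array 4 and LIF_serum arrays 3 and 4, both coded LSFF. The remaining arrays, with both LS arrays among them, were on slide 1. Within slide 2, EpiSC can be set against LIF_serum arrays 3 and 4 and 1 array of each ground state.

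The labels were set against marker genes. The summed linear level of 10 naive markers was 51.5 to 78.3 in EpiSC, 387 to 562 in 2iSB_LIF, 385 to 517 in 2i_LIF and 219 to 413 in LIF_serum, and that of 7 primed epiblast markers was 138 to 183 in EpiSC, 25.4 to 72.9 in 2iSB_LIF, 42.5 to 59 in 2i_LIF and 107 to 196 in LIF_serum. Dppa3 and Dppa4 stood above background on 0 of the 4 EpiSC arrays. All 11 fibroblast markers were tested, and their sum was 147 to 222 in EpiSC, 1.49 to 1.90 in 2iSB_LIF, 1.68 to 2.28 in 2i_LIF and 11.3 to 87.9 in LIF_serum. Dcn, Lum, Postn and Prrx1 were above background on no array of either ground state. Neural ectoderm markers summed to 19.8 to 25.4 in EpiSC, 2.83 to 3.99 in 2iSB_LIF, 3.04 to 6.92 in 2i_LIF and 2.21 to 5.57 in LIF_serum. Nes made up most of that sum, with a mean log2 level of 4.42 in EpiSC, 1.28 in 2iSB_LIF, 1.86 in 2i_LIF and 1.75 in LIF_serum. Sox1 and Pax3 were called higher in EpiSC with it in all 3 comparisons, whereas Pax6, at -4.30 in EpiSC, -0.99 in 2iSB_LIF, -2.65 in 2i_LIF and -3.66 in LIF_serum, was called lower against both ground states. Primitive endoderm markers, 5 of 6 of them tested, summed to 1.59 to 9.74 in EpiSC, 0.393 to 1.05 in 2iSB_LIF, 0.196 to 0.501 in 2i_LIF and 0.519 to 2.49 in LIF_serum, and 3 were called higher in EpiSC than in 2iSB_LIF, 4 than in 2i_LIF and 2 than in LIF_serum, with 0 lower. Over all genes 20.1% were called higher in EpiSC than in 2iSB_LIF, 20.6% than in 2i_LIF and 18% than in LIF_serum. Fibroblast markers, 3 of 4 neural markers and some primitive endoderm markers thus move with EpiSC beside each difference below, and their part in it was not tested. In such bulk RNA, fewer cells that express a gene and less RNA per cell cannot be told apart.

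Etv5, needed in mice for the upkeep of spermatogonial stem cells, was lower in the primed lines. In EpiSC arrays 1 to 4 it had levels of 5.68, 5.52, 5.54 and 5.53. In 2iSB_LIF arrays it had 6.21, 6.79, 7.23 and 6.88, in 2i_LIF arrays 6.36, 6.68, 6.76 and 6.77, and in LIF_serum arrays 6.75, 6.94, 6.29 and 6.45. Every EpiSC array lay under every array of the other groups, while the other 3 groups overlapped. Group means were 5.57 ± 0.07 in EpiSC, 6.78 ± 0.42 in 2iSB_LIF, 6.64 ± 0.19 in 2i_LIF and 6.61 ± 0.29 in LIF_serum (SD, n = 4 each). In order of level EpiSC is lowest, followed by LIF_serum, 2i_LIF and 2iSB_LIF, and those 3 do not differ beyond their spread. EpiSC was 2.06-fold lower than LIF_serum (log2 difference -1.04, SE 0.20), 2.11-fold lower than 2i_LIF (-1.08) and 2.32-fold lower than 2iSB_LIF (-1.21). With arrays centred on their median in place of the 75th percentile these differences were -0.50, -0.54 and -0.69, all under 2-fold. Relative to the median gene they were -1.11, -1.12 and -1.25. Those values are the same under either scaling by construction, since each shifts all genes of an array alike.

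Etv4, the family's founding member and a mediator of branching growth in the kidney and lung, was also lowest on average in EpiSC, with a wider spread. By its brighter probe the levels were 2.47, 2.11, 2.28 and 1.78 in EpiSC, 2.25, 3.16, 3.12 and 1.95 in 2iSB_LIF, 2.99, 3.24, 1.87 and 2.95 in 2i_LIF, and 3.32, 3.09, 2.44 and 2.41 in LIF_serum. EpiSC overlapped each of the other groups, through 2iSB_LIF arrays 1 and 4, 2i_LIF array 3 and the LSFF arrays of LIF_serum. Means were 2.16 ± 0.29 in EpiSC, 2.62 ± 0.61 in 2iSB_LIF, 2.77 ± 0.61 in 2i_LIF and 2.82 ± 0.46 in LIF_serum (SD, n = 4 each), and no neighbours in that order differ beyond their spread. The log2 difference was -0.66 for EpiSC minus LIF_serum, -0.61 minus 2i_LIF and -0.46 minus 2iSB_LIF (SE 0.34 each), and the last became 0.06 with arrays centred on the median and 0.39 with passage in the fit. The second Etv4 probe had means of 0.36 in EpiSC, 0.98 in 2iSB_LIF, 1.15 in 2i_LIF and 1.25 in LIF_serum. It ordered the groups as the brighter probe did, with -0.89 for EpiSC minus LIF_serum (SE 0.35).

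Etv1, the member best known from motor circuits and cardiac conduction tissue, was higher in the primed lines, opposite to Etv5. Its brighter probe read 4.06, 3.89, 3.82 and 3.58 in EpiSC arrays 1 to 4. It read -0.09, 2.20, 2.78 and 1.52 in 2iSB_LIF, 1.96, 2.36, 1.05 and 0.31 in 2i_LIF, and 1.53, 1.68, 0.89 and 0.95 in LIF_serum. Every EpiSC array lay above every other array, and 2iSB_LIF spanned the widest range of any group, with arrays 1 and 3 at its ends. Means were 3.84 ± 0.20 in EpiSC, 1.60 ± 1.24 in 2iSB_LIF, 1.42 ± 0.92 in 2i_LIF and 1.26 ± 0.40 in LIF_serum (SD, n = 4 each), the last 3 within each other's spread. EpiSC was 5.95-fold higher than LIF_serum (log2 difference 2.57, SE 0.52), 5.34-fold higher than 2i_LIF and 4.70-fold higher than 2iSB_LIF. The second Etv1 probe was dim: it was well above background on all 4 EpiSC arrays, on 1 array each of 2iSB_LIF and 2i_LIF, and on no LIF_serum array. By that probe EpiSC was at least 3.2-fold higher than LIF_serum, a bound set against the lowest signal well above background on each dim array.

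**Figure D1:**
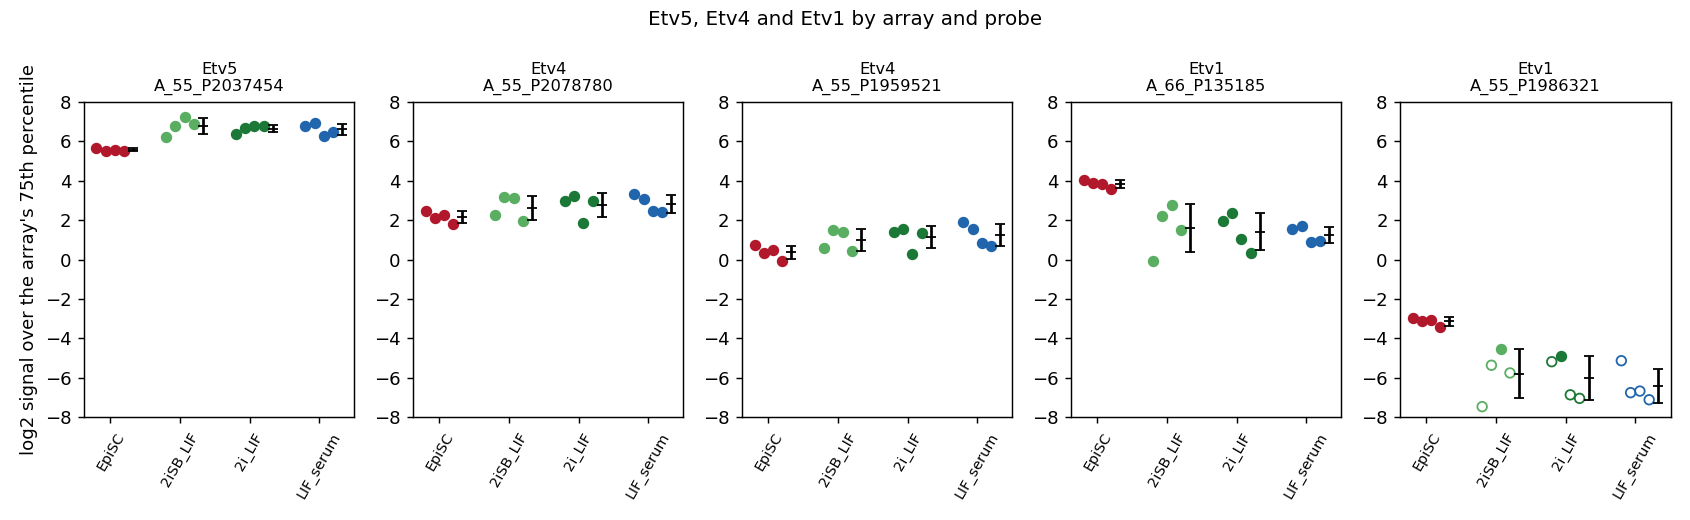
Level of each member probe on each array (log2 signal over the array's 75th percentile) in EpiSC, 2iSB_LIF, 2i_LIF and LIF_serum, with the mean and SD of 4 arrays as bars and open points where the probe was not well above background. EpiSC lies lowest for Etv5 and highest for Etv1, and overlaps the other groups for Etv4.

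A gene was called where limma's adjusted p over all genes was under 0.05 and the difference at least 2-fold. Between EpiSC and LIF_serum 33.6% of genes were called, 18% higher and 15.6% lower in EpiSC, and the arrays of 58.8% of genes did not overlap. Etv5 stood among the lower calls, Etv1 among the higher, and Etv4 was not called. The same held between EpiSC and 2i_LIF, where 37.4% of genes were called (20.6% higher, 16.8% lower, arrays not overlapping for 55.2%), and between EpiSC and 2iSB_LIF, where 36.3% were (20.1% higher, 16.2% lower, not overlapping for 54.2%). With passage in the fit Etv5 was -0.95 against each ground state and no longer called. Since these contrasts chose the members, nothing is read from those calls.

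Removing arrays moved Etv5 across the 2-fold mark in the comparison with LIF_serum: it was -0.99 without LIF_serum array 1 and -0.93 without array 2. Set against the LS arrays alone the EpiSC difference was -1.28 for Etv5, -1.05 for Etv4, which then passed the thresholds for a call, and 2.23 for Etv1, and against the LSFF arrays alone -0.81, -0.26 and 2.91. Those last values are also the ones within slide 2, where EpiSC minus the single array of 2i_LIF gave 3.52 for Etv1, and minus that of 2iSB_LIF -1.67 for Etv5, -0.96 for Etv4 and 1.06 for Etv1.

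Between the ground states and LIF_serum none of the 3 factors moved by more than its spread. 2iSB_LIF minus LIF_serum was 0.17 for Etv5, -0.20 for Etv4 and 0.34 for Etv1 on the log2 scale, and 2i_LIF minus LIF_serum was 0.04, -0.05 and 0.16. For 2iSB_LIF 20.1% of genes were called, 6.81% higher and 13.3% lower, and for 2i_LIF 18.3%, 6.25% higher and 12.1% lower, and no member was among them. 2iSB_LIF minus 2i_LIF was 0.13 for Etv5, -0.15 for Etv4 and 0.18 for Etv1, in a comparison that called 13 of 15517 genes, 0.0838%. Slides differed here: within slide 1, 2iSB_LIF minus LIF_serum was -0.22 for Etv5 and -0.76 for Etv4, and within slide 2, where 2iSB_LIF has array 3 alone, it was 0.86 and 0.70, with 1.85 for Etv1, which was called there. With passage in the fit it was -1.0 for Etv4, past the thresholds for a call.

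The question put to these factors is whether they move with the other feedback genes of the ERK pathway. All 14 feedback inhibitors listed were tested. Between EpiSC and LIF_serum 8 were called higher and 0 lower, against 18% and 15.6% of all genes. The 8 include Spred3, which passed the filter only through its EpiSC arrays, so its direction is not read. The median log2 difference of the 14 was 2.06, against 0.07 over all genes. At an unadjusted p under 0.05 limma gave 10 of the 14 higher and 1 lower, where 9107 of all 15517 genes passed in either direction. Etv1 had the direction of those 8 genes. Etv5, at -1.04, and Etv4, at -0.66, had the opposite sign.

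Dusp2, a nuclear ERK phosphatase, was the feedback gene with the largest rise in EpiSC, 41-fold over LIF_serum (log2 difference 5.36). Dusp5, another nuclear ERK phosphatase, rose 14.9-fold (3.90), and Dusp6, the cytoplasmic ERK phosphatase that accompanies Etv4 and Etv5 in FGF domains of the embryo, rose 11.3-fold (3.50). Spred3, an inhibitor of RAF activation, was well above background on no LIF_serum array and was at least 4.27-fold higher in EpiSC. Errfi1, an EGF receptor inhibitor, and Spry2 each rose by 2.33, Spred1 by 1.97, and Il17rd, the FGF antagonist also called Sef, by 1.92. Spry4, at 2.15, was not called, and its LIF_serum arrays spread with an SD of 2.58. The other 5 were Dusp7 at 0.58, Spred2 at 0.18, Dusp4 at -0.17, Dusp9 at -0.59 and Spry1 at -0.96. Spry1, a Sprouty protein, thus had the sign of Etv5 in this comparison, with a limma adjusted p of 0.002, short of the 2-fold mark. It did not follow Etv5 over the 4 groups. EpiSC minus 2i_LIF was 0.61 for Spry1 and EpiSC minus 2iSB_LIF 0.88, opposite in sign to Etv5.

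Against the ground states more feedback genes were higher in EpiSC, 10 of 14 against 2i_LIF and 10 of 14 against 2iSB_LIF, with 0 lower in both and medians of 2.50 and 2.31. Spred3, tested only through its EpiSC arrays, is in both counts. Over all genes 20.6% were called higher and 16.8% lower against 2i_LIF, and 20.1% and 16.2% against 2iSB_LIF. Limma's unadjusted p was under 0.05 for 9470 of all 15517 genes against 2i_LIF and 9261 against 2iSB_LIF, in either direction. Among the feedback genes this held for 12 higher and 0 lower in each. Beside them Etv5 was -1.08 and -1.21, Etv4 -0.61 and -0.46, and Etv1 2.42 and 2.23 against the same groups. The 3 comparisons share the EpiSC arrays and so are not independent.

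**Figure D2:**
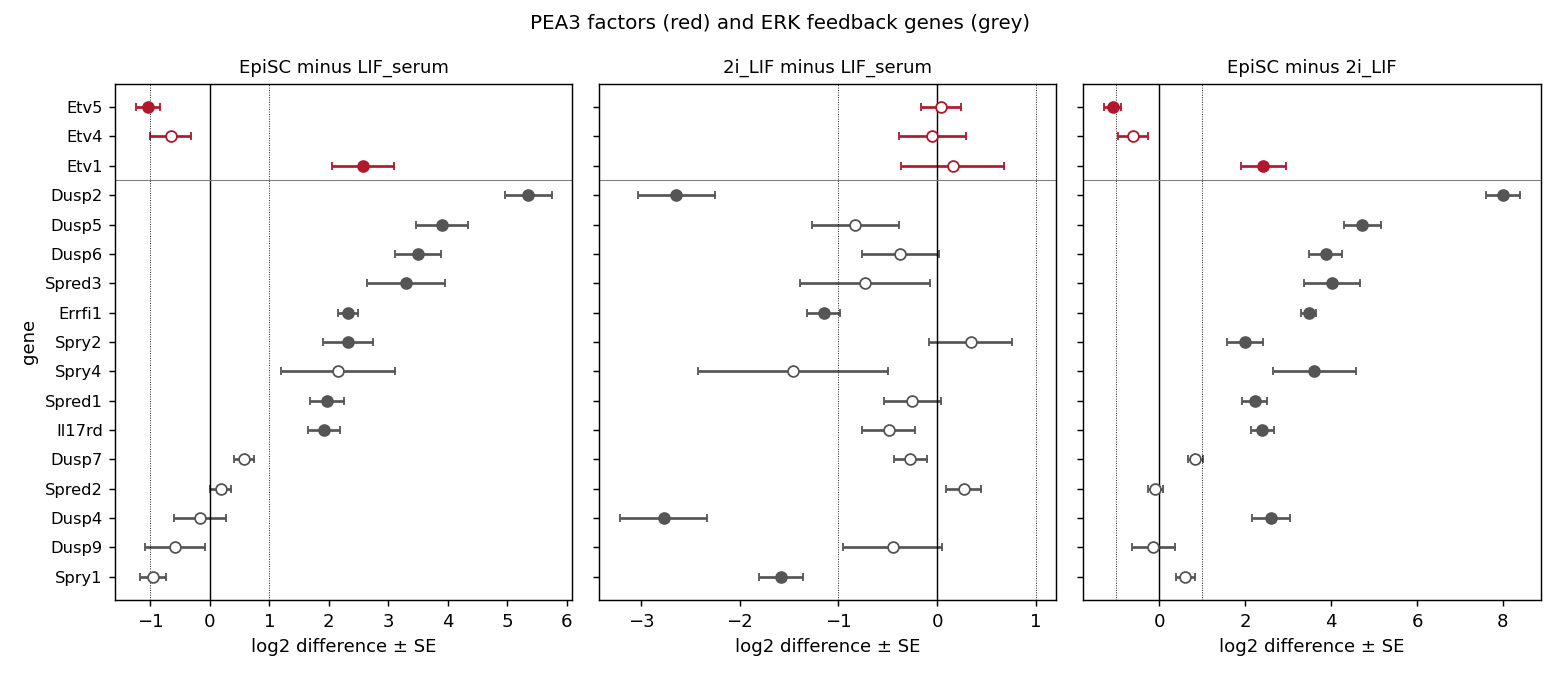
Log2 difference with its SE of the 3 PEA3 factors (red) and 14 ERK feedback genes (grey) for EpiSC minus LIF_serum, 2i_LIF minus LIF_serum and EpiSC minus 2i_LIF, with filled points where the gene was called and dotted lines at a 2-fold difference. Etv5 and Etv4 lie left of 0 in both EpiSC panels while Etv1 and most feedback genes lie right of it, and in the panel of 2i_LIF minus LIF_serum the factors sit near 0.

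In the ground states 4 of the 14 feedback genes fell relative to LIF_serum and 0 rose, in both 2iSB_LIF and 2i_LIF, and they were Dusp2, Dusp4, Errfi1 and Spry1 each time. Both comparisons share the LIF_serum arrays. Over all genes 13.3% fell and 6.81% rose in 2iSB_LIF, and 12.1% and 6.25% in 2i_LIF. At an unadjusted p under 0.05, limma gave 7 feedback genes lower in 2iSB_LIF and 4 lower in 2i_LIF, with 0 higher in both. Of all 15517 genes 6783 passed it in 2iSB_LIF and 6377 in 2i_LIF, in either direction. The number of feedback genes passing thus does not set the list apart. For 2i_LIF minus LIF_serum the log2 difference was -2.77 for Dusp4, -2.64 for Dusp2, -1.58 for Spry1 and -1.15 for Errfi1. The medians of the 14 were -0.53 in 2iSB_LIF and -0.61 in 2i_LIF, against 0.02 over all genes. Etv5, Etv4 and Etv1 were not called, with differences between -0.20 and 0.34, but with passage in the fit Etv4 was called lower in 2iSB_LIF, at -1.0. Between 2iSB_LIF and 2i_LIF limma called 0 of the 14, and 0 had an unadjusted p under 0.05, which 867 of all 15517 genes had.

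Other genes that report on ERK moved more. Of 15 immediate early genes, the first to be transcribed on ERK activity, 13 rose and 0 fell in EpiSC relative to LIF_serum. Over all genes these shares were 18% and 15.6%. Limma's unadjusted p was under 0.05 for 14 of the 15 higher and 0 lower, and for 9107 of all 15517 genes in either direction. Egr4 rose by 5.38 on the log2 scale and Fosl1, a partner of Jun, by 4.65, although Fosl1 was above background on only 2 of 4 LIF_serum arrays. Fosl1 and Egr3, both among the 13, passed the filter only through their EpiSC arrays, so their direction is not read. Relative to LIF_serum 13.3% of all genes fell in 2iSB_LIF and 12.1% in 2i_LIF. Of the 15 listed, 9 fell in 2iSB_LIF and 8 in 2i_LIF, with 0 higher in both and 1 higher in each at an unadjusted p. Fosb led the falls in 2iSB_LIF at -4.35, followed by Egr2 at -3.79, and in 2i_LIF the leading falls were Fosl2 at -3.89 and Fosb at -3.81. Egr2 was above background on 3 of 4 2iSB_LIF arrays and Fosl2 on 3 of 4 2i_LIF arrays. Against these ranges Etv5 spanned 1.21 log2 units over the 4 group means.

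Upstream of the factors, 14 of 15 FGF ligands, receptors and adaptors were tested. In EpiSC 3 rose and 6 fell relative to LIF_serum, where 18% of all genes rose and 15.6% fell. Fgf5, the epiblast ligand, rose by 5.41 and Fgf8 by 2.81. Fgf4, the main FGF of embryonic stem cells, averaged 1.64 in EpiSC and 6.0 in LIF_serum, a difference of -4.36, and Fgf3 was above background on no EpiSC array and at least 8-fold lower there. In the ground states 7 fell in 2iSB_LIF and 6 in 2i_LIF relative to LIF_serum, and 0 rose. Over all genes 13.3% fell and 6.81% rose in 2iSB_LIF, and 12.1% and 6.25% in 2i_LIF. In 2iSB_LIF Fgf5 fell by 4.18, and Fgf10 was above background on none of its arrays and at least 4.82-fold lower. In 2i_LIF Fgf5 fell by 3.54 and Fgf15, a ligand of the same family as human FGF19, fell by 2.45. Fgf5 was above background on only 1 of 4 2iSB_LIF and 2 of 4 2i_LIF arrays, so its falls rest partly on signals near background.

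Of 15 adaptors and kinases between receptor and ERK, 4 rose and 1 fell in EpiSC relative to LIF_serum, against 18% and 15.6% of all genes, led by Sos1 at 2.00 and Sos2 at 1.82, exchange factors for RAS, while the scaffold Ksr1 fell by 1.20. In each ground state 1 rose and 1 fell, Sos1 by 2.01 in 2iSB_LIF and 1.89 in 2i_LIF, and Mapk3, which encodes ERK1, at -1.24 and -1.14. Over all genes 6.81% rose and 13.3% fell in 2iSB_LIF, and 6.25% and 12.1% in 2i_LIF. Sos1 was above background on only 1 LIF_serum array.

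Of the genes listed for the Capicua complex and the COP1 ligase with its partners, 9 of 10 were tested, Cic itself being named by no probe. Not every partner is known to act on the PEA3 family. In EpiSC 5 rose and 0 fell relative to LIF_serum, against 18% and 15.6% of all genes, with a median of 1.19 for the 9. Trib1, a pseudokinase that brings substrates to COP1, rose by 4.32, and Atxn1l, a Capicua partner, rose by 1.96. The other 4 tested were not called: Atxn1 at 0.42, Cop1 at 0.30, Ddb1 at -0.32 and Det1 at -0.36. In the ground states 2 fell in each relative to LIF_serum, where 13.3% of all genes fell in 2iSB_LIF and 12.1% in 2i_LIF. The 2 were Atxn1 by 1.85 and Trib2 by 1.57 in 2iSB_LIF, and Atxn1 by 2.33 and Atxn1l by 1.13 in 2i_LIF. Atxn1 was above background on only 2 of 4 2iSB_LIF and 1 of 4 2i_LIF arrays.

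Of 12 genes placed downstream of Etv4 or Etv5 in mouse kidney, spermatogonia or tumour cells, 8 rose and 1 fell in EpiSC relative to LIF_serum. Over all genes these shares were 18% and 15.6%. Spry1 and Dusp6 are also in the feedback list. Apart from Dusp6, the largest rise was Mmp9, a matrix protease, at 3.37. Mmp9, Cxcr4 and Ret, all among the 8, passed the filter only through their EpiSC arrays, so their rises are not read. Bcl6b, an Etv5-dependent gene in spermatogonia, fell by 1.69. In each ground state 7 fell and 0 rose relative to LIF_serum. Over all genes 13.3% fell and 6.81% rose in 2iSB_LIF, and 12.1% and 6.25% in 2i_LIF. Bcl6b fell by 4.37 and the membrane protease gene Mmp14 fell by 3.96 in 2iSB_LIF, and Bcl6b fell by 4.08 and the mesoderm factor T fell by 3.06 in 2i_LIF. Above background were Bcl6b on 3 of 4 arrays of each ground state, Mmp14 on 1 of 4 2iSB_LIF arrays and T on 1 of 4 2i_LIF arrays. Mmp9, also among the falls, was above background on no array of either ground state. Ret, counted as a fall in both, was above background on no array of the ground states or LIF_serum. It was tested through its EpiSC arrays, so its falls compare signals near background. Etv4 and Etv5 did not differ beyond their spread in those comparisons. Matrix protease genes are also made by fibroblasts, whose markers moved the same way, a part that was not tested.

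Among ETS factors outside the family 19 of 23 were tested, and 5 rose and 3 fell in EpiSC relative to LIF_serum, where 18% of all genes rose and 15.6% fell. Fli1 was at least 3-fold higher and Elk3 rose by 2.49. Spic, a lymphoid and macrophage factor of the group, fell by 8.03 on the log2 scale and was above background on 1 of 4 EpiSC arrays, and the epithelial factor Elf3 fell by 4.15. In 2iSB_LIF 4 rose and 3 fell relative to LIF_serum, and in 2i_LIF 2 rose and 3 fell, with Spic up by 2.27 in 2iSB_LIF and 2.23 in 2i_LIF. Over all genes 6.81% rose and 13.3% fell in 2iSB_LIF, and 6.25% and 12.1% in 2i_LIF. Fli1, counted as a fall in both, was above background on no array of 2iSB_LIF, 2i_LIF or LIF_serum. It was tested through its EpiSC arrays.

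**Figure D3:**
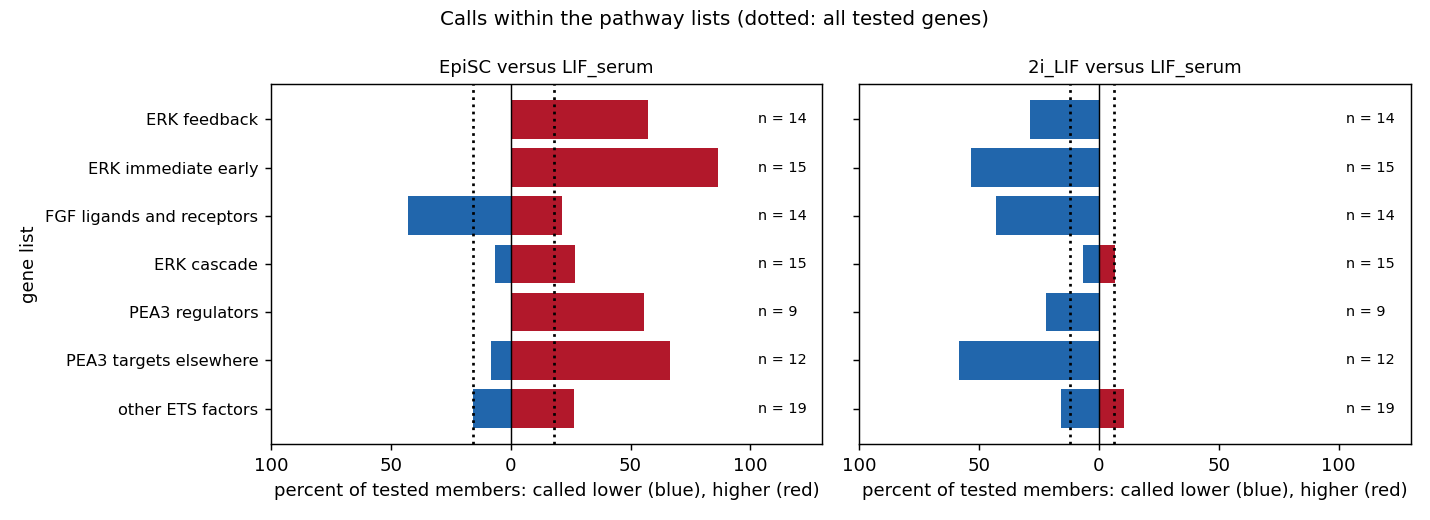
Percent of the tested genes of each list that were called higher (red) or lower (blue) in EpiSC relative to LIF_serum and in 2i_LIF relative to LIF_serum, with dotted lines at the shares over all tested genes. Feedback and immediate early genes are called higher only in the EpiSC panel and lower only in the 2i_LIF panel.

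Within LIF_serum the codes LSFF and LS give a comparison that did not choose the members. It was fitted with slide as a term, since the codes lie on different slides, and 6.29% of genes were called. That term rests on 2iSB_LIF array 3 and 2i_LIF array 4 set against the slide 1 lines of their groups. A slide difference therefore cannot be told from one between those lines. Uncorrected, LSFF minus LS was -0.47 for Etv5, -0.79 for Etv4 and -0.68 for Etv1. Etv5 averaged 6.37 in LSFF and 6.84 in LS, and the slide-corrected log2 difference was -0.86 (SE 0.28, limma adjusted p = 0.082). Etv4 averaged 2.42 in LSFF and 3.21 in LS (-1.25, SE 0.56, adjusted p = 0.19), and Etv1 averaged 0.92 in LSFF and 1.60 in LS (-0.73, SE 1.00, adjusted p = 0.70). Each factor was lower on both LSFF arrays than on both LS arrays, as 34.5% of all genes were, with arrays not overlapping in either direction for 76.1%, and none passed the test. Of the 14 feedback genes 2 fell in LSFF and 0 rose: Spry2 by 2.31 (limma adjusted p = 0.0012) and Spry4, with an adjusted p of 0.029, which was above background on both LS arrays and on neither LSFF array. Before slide correction Spry4 was at least 13.6-fold lower in LSFF. The fibroblast markers summed to 11.3 to 12.4 on LSFF arrays and 71.3 to 87.9 on LS arrays, the naive markers to 219 to 240 on LSFF and 408 to 413 on LS arrays, and passage was 26 for LSFF lines and 23 and 24 for LS lines. Their part was not tested.

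Passage number gave another comparison within groups, chosen after the data were seen. With the 4 group means in the fit, the slope of Etv4 was -0.19 log2 units per passage (SE 0.05, limma unadjusted p = 0.0015), with an adjusted p of 0.25. It was -0.06 for Etv5 (adjusted p = 0.55) and -0.17 for Etv1 (adjusted p = 0.50). Over all genes limma found 0 slopes with an adjusted p under 0.05 and 1869, or 12%, with an unadjusted one, so the slope of Etv4 fails the correction.

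**Figure D4:**
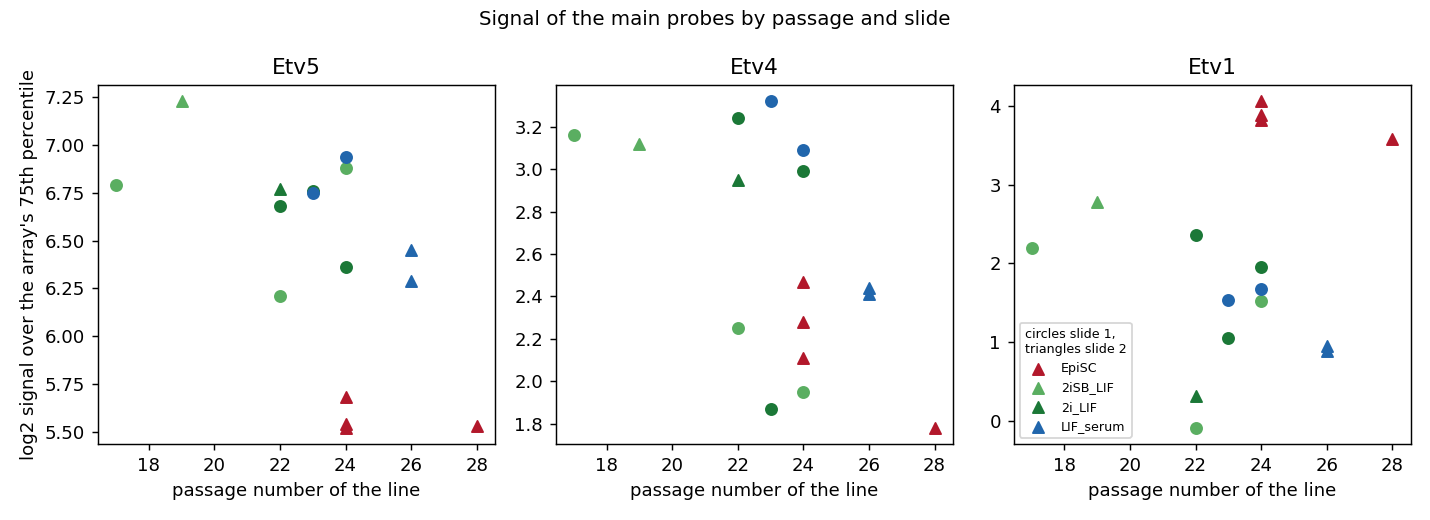
Level of the brighter probe of Etv5, Etv4 and Etv1 on each array (log2 signal over the array's 75th percentile) against the passage number of the line, with groups as colours, circles for slide 1 and triangles for slide 2. The highest Etv4 levels lie at passages 17 to 24 and the lowest, 1.78, at passage 28 in EpiSC.

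The nearest tested gene on either side of each factor on its chromosome was examined as local context. Genes that were not tested may lie between. Beside Etv5 on chromosome 16, the splicing factor gene Tra2b was called in none of the 6 comparisons, while Crygs, a lens crystallin gene, fell in EpiSC relative to LIF_serum by 2.73 (limma adjusted p = 2.8e-05), to 2i_LIF by 2.24 and to 2iSB_LIF by 3.15. Crygs was above background on 3 of 4 EpiSC arrays. Beside Etv1 on chromosome 12, Dgkb, a diacylglycerol kinase gene, was above background on the EpiSC arrays alone and was at least 3.02-fold higher there than in LIF_serum (limma adjusted p = 9.6e-07), at least 3.76-fold than in 2i_LIF and at least 3.89-fold than in 2iSB_LIF. Arl4a, on its other side, was called in none. The neighbours of Etv4 on chromosome 11 were the helicase gene Dhx8, called in none, and Meox1, a somite homeobox gene, which was at least 1.31-fold higher in EpiSC than in 2i_LIF and at least 1.35-fold than in 2iSB_LIF. Crygs fell with Etv5 in the EpiSC comparisons, where 33.6 to 37.4% of all genes were called in either direction. Meox1 rose against both ground states, opposite in sign to Etv4. Dgkb and Meox1 passed the filter only through their EpiSC arrays, so no direction is read from them. A link between the factors and their neighbours was not tested.

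Genes with the most similar pattern were ranked by the root mean square difference of centred levels over the 16 arrays, among 15319 genes. Near to Etv5 were Dyrk3, a kinase gene, at 0.18 log2 units, the replication timing gene Rif1 at 0.191, Pnkd at 0.195 and the death effector gene Bax at 0.207. Dyrk3 had means of 2.14 in EpiSC, 3.26 in 2iSB_LIF, 3.31 in 2i_LIF and 3.14 in LIF_serum. Nearest to Etv4 were Dtd2, Cenpp, Pole3, Dbr1 and Rnmt, at 0.276 to 0.294. Nearest to Etv1 were the phospholipase gene Plch1 at 0.296, Neto2, Nap1l2, Vim, which encodes vimentin, and the proteoglycan gene Gpc4 at 0.406. Vim had means of 7.60 in EpiSC, 5.49 in 2iSB_LIF, 5.44 in 2i_LIF and 5.40 in LIF_serum. From Etv5, Etv4 ranked 2129 (0.495) and Etv1 13259 (1.63), and from Etv4, Etv5 ranked 1501. By the 4 group means alone the ranks of the named genes were 31 to 158 for Etv5, 23 to 599 for Etv4 and 2 to 215 for Etv1.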

How the data were processed

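Per the labels, total RNA was labelled with Cy3 for 1 array per line. Intensity values in the scanner files were deposited as written by Agilent Feature Extraction 10.7.1.1, per the file headers, already background-subtracted and not scaled between arrays, and the deposited flags for background, saturation and outliers were used. The authors also deposited a table of log2 values (limma and Feature Extraction, per the submitters' processing notes), with a normalization not given in the sources used here. Its columns have medians of 7.51 to 7.58 and correlate with the scanner values at 0.989 to 0.994, and it served as an alternative.

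Each array had 62976 spots, of which 3671 were controls. Processed signals were divided by the array's 75th percentile, put on the log2 scale and averaged per probe without outlier spots. Probes were named through RefSeq accessions, 27656 with 1 symbol. A probe was tested if well above background on all arrays of a group, and the brightest probe stood for a gene. Groups were compared with limma 3.58.1 in R 4.3.3 (lmFit, eBayes, Benjamini-Hochberg over 15517 genes), which was also tested on simulated data, and called at an adjusted p under 0.05 and at least 2-fold. P-values measure the spread between these arrays. Members and gene lists were chosen with earlier results of these data known. Named were all members, each feedback gene, the called genes of other lists with the largest rises and falls, the nearest tested chromosomal neighbours and the 5 nearest patterns. Clone and predicted names were left out of the last, and 1 gene is not reported here. Alternatives covered slide, replicate number, passage, scaling, background correction, filters, probes and each array left out.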

Additional observations from a re-analysis of the deposited data

Results flagged for a closer look

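Of 76 groups of 4 arrays examined, over the member probes and the feedback genes, 8 held 1 array whose gap to its neighbour passed Dixon's critical value, and chance flags about 1 in 20 groups. For Etv5, EpiSC array 1 stood apart at 5.68, above the 5.52 to 5.54 of the other EpiSC arrays. For the second Etv4 probe, 2i_LIF array 3 stood apart at 0.30, below 1.37 to 1.55. Among feedback genes 6 groups had such an array. It was 0.59 for Spry1 in 2iSB_LIF, 0.38 for Spred2 in 2i_LIF, 0.83 for Dusp4 in LIF_serum and -3.62 for Dusp5 in 2i_LIF. For Dusp7 it was 0.66 in EpiSC and 0.34 in 2iSB_LIF.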

How the results depend on the processing

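The contrasts with EpiSC chose the members, so the tallies of their calls describe the processing and test nothing. Of the alternatives for each EpiSC comparison, 16 leave out 1 array each and share most of their data. For EpiSC relative to LIF_serum, Etv1 was past the 2-fold and adjusted p thresholds in 29 of 29 alternatives (2.23 to 3.11) and Etv5 in 23 of 29 (-1.28 to -0.50). Those that took Etv5 under them were slide 2 alone or the LSFF arrays alone (both -0.81), quantile normalization (-0.93), leaving out LIF_serum array 1 or 2, and median centring. Against 2i_LIF and 2iSB_LIF, Etv5 kept its call in 25 of 27 alternatives each and lost it with passage in the fit (-0.95 in both) and with median centring. Feedback calls for EpiSC were 8 to 10 against LIF_serum, 10 to 12 against 2i_LIF and 9 to 12 against 2iSB_LIF. Median centring shifted the median of all genes to 0.61, 0.58 and 0.56 for EpiSC minus LIF_serum, 2i_LIF and 2iSB_LIF, against 0.07, 0.04 and 0.04. It gave -0.50, -0.54 and -0.69 for Etv5 and -0.12, -0.07 and 0.06 for Etv4. Relative to the median gene Etv5 was at -1.11, -1.12 and -1.25, which this change of scaling cannot alter. Median centring also moved the share of calls that were higher to 75.9%, 74.9% and 74.5%, against 53.5%, 55% and 55.4%.

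Slide 2 holds 1 array of each ground state, whose spread was taken from the other groups. Within it, gene calls were 4969 for 2iSB_LIF versus LIF_serum, against 3115, and 2236 for 2iSB_LIF versus 2i_LIF, against 13, with 7 and 2 feedback calls. 2iSB_LIF minus LIF_serum was 0.86 for Etv5, 0.70 for Etv4 and 1.85 for Etv1, 2i_LIF minus LIF_serum 0.40, 0.53 and -0.61, and 2iSB_LIF minus 2i_LIF 0.46 for Etv5 and 2.46 for Etv1. EpiSC minus 2iSB_LIF was -1.67, -0.96 and 1.06 for Etv5, Etv4 and Etv1, and EpiSC minus 2i_LIF 3.52 for Etv1. Within slide 1, gene calls were 1761 for 2iSB_LIF and 1687 for 2i_LIF versus LIF_serum, against 3115 and 2841, and 2 between the ground states, and 2iSB_LIF minus LIF_serum was -0.22 for Etv5 and -0.76 for Etv4, and minus 2i_LIF -0.58 for Etv1. Passage as a covariate gave 1902 calls for 2iSB_LIF versus LIF_serum and 42 versus 2i_LIF, and -1.0 and 0.39 for Etv4 in 2iSB_LIF minus LIF_serum and EpiSC minus 2iSB_LIF, with 3.00 for Etv1 in the last. The causes were not tested.

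Testing all probes gave 10575, 5384 and 4798 calls for EpiSC, 2iSB_LIF and 2i_LIF versus LIF_serum, 12180 and 11733 for EpiSC versus 2i_LIF and 2iSB_LIF, and 24 for 2iSB_LIF versus 2i_LIF, since more probes than genes are counted. That last count was 3 with the groups fitted alone and 9 to 27 with each array left out, 27 without 2iSB_LIF array 1. The replicate block gave 8 there and 5179, 3033 and 2733 calls for EpiSC, 2iSB_LIF and 2i_LIF versus LIF_serum, within 1.5 times the counts reported, and left the calls of members and the counts of feedback calls as they were. The replicate numbers do not pair the samples: same-numbered arrays correlated at -0.60 to 0.40, above 0.1 in 7 of 24 pairs. For LSFF versus LS, calls were 671 to 1309 and no member passed. The normexp correction planned on the mean signal was not run, and the median signal was used in its place, a choice made after seeing the data. The slide and LSFF or LS splits of LIF_serum, which coincide, cannot be told apart without the other groups.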
